A study of Homo sapiens with 6 samples.

Results

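The genes described here encode kinesin motors, centromere and kinetochore proteins, the mitotic kinases, cyclins and other cell division cycle proteins, and the SMC proteins that fold and hold chromosomes. They were taken by symbol, as all KIF, CENP, BUB, AURK, PLK, NEK, NCAP, SMC, ANAPC, CDC, cyclin A, B, D and E, and CDCA names of the array annotation, without the CDC42 names. Where a symbol had several rows, the row with the highest mean over all arrays was kept. This gave 137 of the 14884 named symbols, in 11 of the 12 families. There were 42 KIF genes, 20 CDC, 16 CENP, 10 NEK, 10 ANAPC, 9 cyclin, 7 SMC, 7 CDCA, 5 PLK, 3 BUB and 3 AURK genes. The other 5 symbols were noncoding RNAs or pseudogenes (ANAPC1P1, ANAPC1P2, CENPBD2P, KIF9-AS1 and SMC5-DT). A further 19 protein-coding genes with such names, among them all NCAP genes, CENPE, CENPF and NEK1, had no named row and were not analysed here.

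Kinesins walk along microtubules. One set of them builds and focuses the mitotic spindle and moves chromosomes, and another carries vesicles and organelles. Cyclins, with their kinases, and the polo-like and aurora kinases drive the cell into mitosis, the kinetochore ties each centromere to the spindle, and the anaphase-promoting complex ends mitosis by marking cyclin B and securin for destruction. Many of these genes are transcribed mostly in G2 and mitosis, under a repressor complex that binds the cell cycle homology region (CHR) of their promoters. In HEK293 cells, an immortalised line that divides continuously, they are actively transcribed.

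Total RNA came from Flp-In HEK293 cells, in which a construct is placed at a fixed site of the genome, that stably carried TDNC1 (3 arrays) or a random control RNA (3 arrays). Both kinds of cell were made with the inducible Flp-In T-REx system and grown under blasticidin and hygromycin, and stable clones were pooled for each. What the name TDNC1 stands for, and whether an inducer was added, is not stated in the labels. They call the arrays biological replicates without naming separate cultures, so a p-value here covers only the spread of these arrays, part of which may be technical.

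Each value is a log2 expression value from an Affymetrix Human Gene 2.0 ST array, and a difference of 1 is a doubling. Of 9 genes listed as markers of HEK293 cells, 6 had a named row, and 0 of these lay below the lower quartile of all rows, with summed log2 values of 44.98 to 45.26 in TDNC1 and 44.07 to 45.07 in the controls. PAX2, a kidney transcription factor, stood at 6.49, 6.26 and 6.22 in TDNC1 replicates 1, 2 and 3 and at 5.87, 5.78 and 6.09 in the controls. Of 7 fibroblast markers, 3 had a row and 2 of these lay below the lower quartile, and their summed log2 values ran from 10.94 to 12.28 in TDNC1 and from 11.51 to 11.96 in the controls. Of 7 blood cell markers, 2 had a row and 0 of these lay below the lower quartile, with sums of 8.98 to 9.25 in TDNC1 and 9.06 to 9.34 in the controls. Of 5 markers of differentiated epithelium, 3 had a row and 1 of these lay below the lower quartile, with sums of 18.13 to 19.04 against 18.38 to 18.76. Of 4 markers of proximal tubule, 3 had a row and 0 lay below the lower quartile, with sums of 16.99 to 17.48 against 17.03 to 17.26. EPCAM, an epithelial marker, had means of 9.94 in TDNC1 and 9.91 in the controls, above every HEK293 marker with a row. KRT5 and KRT14 had means of 3.34 and 5.25 in TDNC1. Sums over different numbers of genes cannot be compared between cell types.

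TDNC1 replicate 3 was nearer to each control array than to the other TDNC1 arrays. Over the 137 genes, TDNC1 replicate 3 differed from control replicate 3 by a median absolute log2 difference of 0.0687, and from TDNC1 replicates 1 and 2 by 0.137 and 0.140. Its differences from control replicates 1 and 2 were 0.111 and 0.0889. TDNC1 replicates 1 and 2 differed from each other by 0.0682, and from the controls by 0.114 to 0.159. Control replicates 1 and 2 differed by 0.0617, and control replicate 3 differed from each of them by 0.102. TDNC1 replicate 3 lay within the range of the controls for 72 of the 137 genes (52.6%), against 47 for replicate 1 and 41 for replicate 2. Among the 11916 named protein-coding genes, the corresponding shares were 50.5%, 33.9% and 36.9%. The plot of the named genes shows 55 of them with and without TDNC1 replicate 3. The text gives both values for the counts of genes past a threshold and for many of the single genes, mostly those that moved away from 0. Others moved nearer to 0, such as ANAPC10 (from 0.13 to 0.09) and AURKA (from 0.05 to 0.02). TDNC1 replicate 3 was singled out by its values in these same data, so the fits without it are descriptive.

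**Figure D1:**
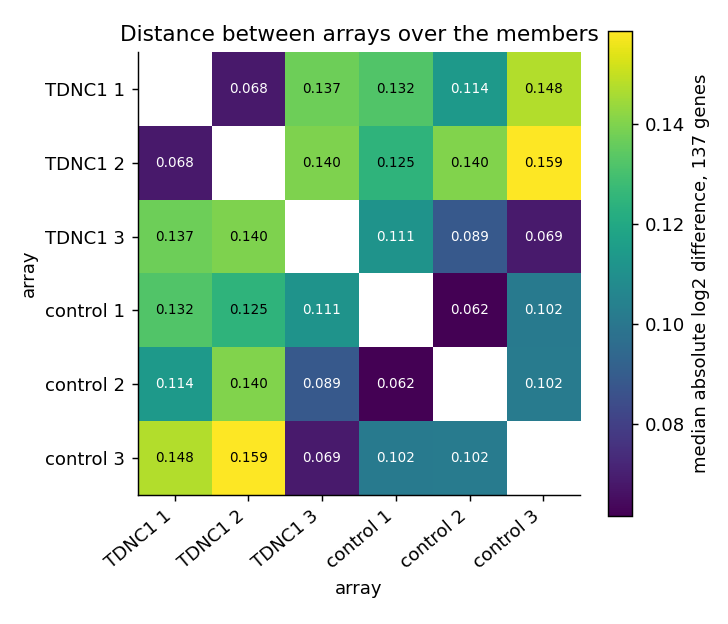
Median absolute log2 difference between each pair of the 6 arrays over the 137 genes, with both axes listing the arrays and darker cells for closer pairs. TDNC1 replicate 3 is closest to control replicate 3 (0.0687), at about the distance between TDNC1 replicates 1 and 2 (0.0682).

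The main comparison asked whether these genes stand at other levels in cells that carry TDNC1. With all 6 arrays, 0 of the 137 genes were called at an adjusted p under 0.05 (limma, Benjamini-Hochberg over all 53617 rows). The lowest adjusted p was 0.631. Over all rows 1 was called (0.00187%), and over the named protein-coding genes 0 (0%). The median log2 change over the 137 genes, TDNC1 minus control, was 0.03, with 84 of them above 0 (61.3%), against -0.01 over all rows (47.0% above 0) and 0.01 over the named protein-coding genes (52.4%). The 95% intervals of the single changes reached from -0.65 at the lowest bound to 0.95 at the highest. In bulk RNA, a change in the share of cells in a phase of the cell cycle and a change in the RNA of each cell cannot be told apart.

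At an unadjusted p under 0.05, 6 of the 137 genes differed (4.38%), 4 higher in TDNC1 (KIF27, KIF5C, CENPC and NEK9) and 2 lower (KIF6 and KIF9-AS1). The share was 7.70% over all rows, 3.74% higher and 3.96% lower. Over the named protein-coding genes it was 7.29%, 4.99% higher and 2.30% lower. The share among the 137 genes was thus below that of the array as a whole. The values of the 3 TDNC1 arrays and the 3 controls did not overlap for 18 genes (13.1%), 11 higher and 7 lower, against 13.2% of all rows (6.48% higher, 6.70% lower) and 16.2% of the named protein-coding genes (9.89% higher, 6.36% lower).

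Without TDNC1 replicate 3, again 0 of the 137 genes were called by limma, with the lowest adjusted p at 0.103, while 0.0429% of all rows and 0.0168% of the named protein-coding genes were called. The genes with an unadjusted p under 0.05 then numbered 28 (20.4%), 23 of them higher and 5 lower. The background moved too, to 14.5% of all rows (6.87% higher, 7.62% lower) and 19.2% of the named protein-coding genes (11.3% higher, 7.97% lower). The share of the 137 genes was thus near that of other protein-coding genes in this setting, with more of it on the higher side. The 5 lower genes were PLK1, CDC20, CENPX, CCNE2 and KIF9-AS1.

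**Figure D2:**
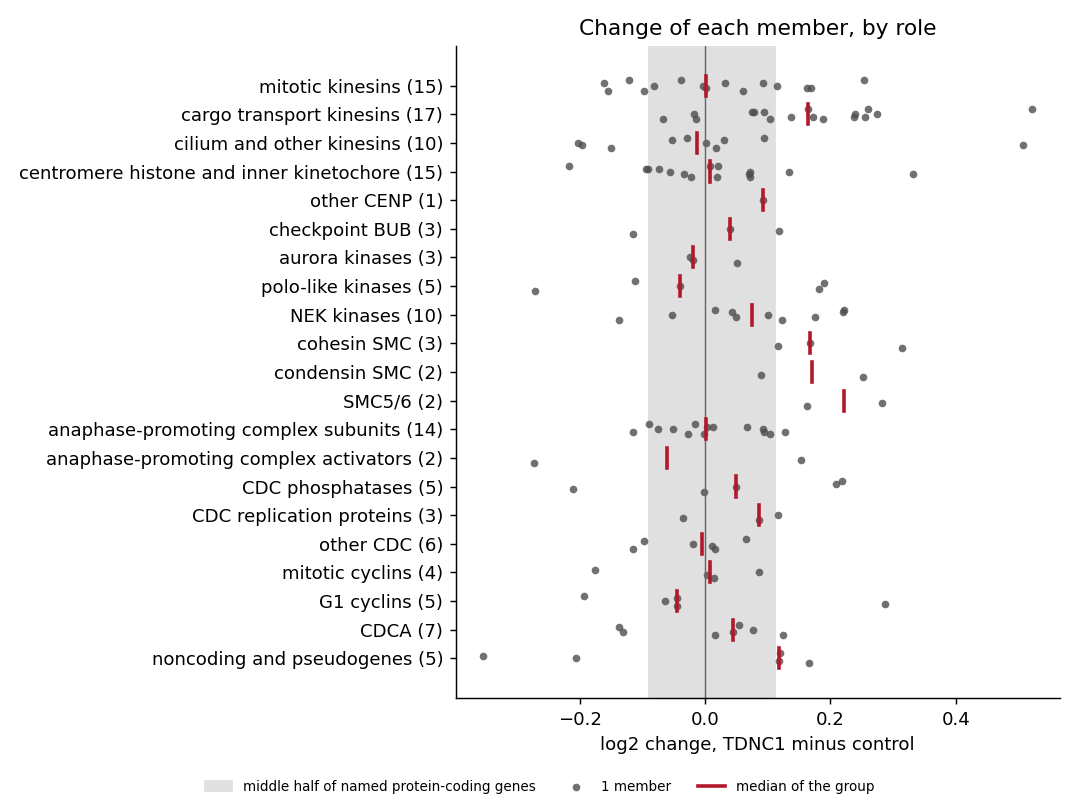
Log2 change (TDNC1 minus control, 6 arrays) of each of the 137 genes on the x axis, grouped by role on the y axis with the number of genes. Each point is 1 gene, the bar is the median of its group, and the grey band spans the lower to upper quartile of the 11916 named protein-coding genes. The SMC groups and the cargo transport kinesins have their medians to the right of the band, while mitotic kinesins, inner kinetochore proteins and anaphase-promoting complex subunits have theirs near 0.

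Mitotic kinesins, the motors of the spindle, had changes on both sides of 0. Of 15 measured, 8 had a positive change, the median was 0.00097, and the changes ran from -0.16 to 0.25. KIF11, the tetrameric motor that pushes the spindle poles apart, stood at 10.86, 10.87 and 10.77 in TDNC1 replicates 1, 2 and 3 and at 10.80, 10.79 and 10.73 in the controls. Its log2 change was 0.06 (SE 0.09), with a 95% interval of -0.14 to 0.26. KIF23, the motor of the central spindle in cytokinesis, stood at 10.79, 10.65 and 10.55 against 10.60, 10.50 and 10.63, a change of 0.09 (SE 0.10), and 0.15 (SE 0.10) without TDNC1 replicate 3. Both groups overlapped for these motors.

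KIF20A, which brings the chromosomal passenger complex to the central spindle, stood at 9.56, 9.56 and 9.75 in TDNC1 and at 9.69, 9.66 and 9.80 in the controls, a log2 change of -0.10 (SE 0.10), and -0.16 (SE 0.09) without TDNC1 replicate 3. KIFC1, the motor that gathers extra centrosomes, stood at 8.14, 8.17 and 8.15 against 8.12, 8.12 and 8.33, a change of -0.04 (SE 0.10). KIF18B, which acts at the growing ends of astral microtubules, was the only mitotic kinesin whose groups did not overlap (before rounding), at 8.72, 8.64 and 8.83 in TDNC1 and 8.85, 8.83 and 8.87 in the controls. Its change of -0.12 (SE 0.09) had a limma adjusted p of 0.740.

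The depolymerising kinesins, which take microtubules apart, went in both directions. KIF2A stood at 9.73, 9.77 and 9.26 in TDNC1 replicates 1, 2 and 3 and at 9.38, 9.34 and 9.27 in the controls. Replicates 1 and 2 were thus above all controls and replicate 3 below them. Its log2 change of 0.25 (SE 0.15) became 0.42 (SE 0.09, limma adjusted p 0.156) without replicate 3. KIF2C, the motor that corrects wrong kinetochore attachments, stood at 8.80, 8.66 and 8.59 against 8.45, 8.45 and 8.64, a change of 0.17 (SE 0.11). KIF2B was dim, with a mean of 5.37 ± 0.12 (SD, n = 3) in TDNC1 and 5.52 ± 0.07 in the controls. KIF4A and KIF4B are near-identical copies that probes may not tell apart, so their changes of -0.08 and -0.16 are uncertain as separate values. That of KIF4A was -0.13 (SE 0.11) without replicate 3.

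The kinesins that carry cargo had mostly positive changes. Of 17 measured, 14 had a positive change, with a median of 0.16, against 52.4% above 0 and a median of 0.01 among the named protein-coding genes. The median over these motors of the log2 value minus the control mean was 0.32, 0.18 and 0.02 in TDNC1 replicates 1, 2 and 3, and between 0.0028 and 0.015 in the controls. In replicates 1 and 2, 13 and 13 of the 17 stood above all controls, and in replicate 3 only 4. Among the named protein-coding genes those shares were 36.8%, 33.4% and 25.3%. None of the 17 passed the adjusted threshold.

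KIF5C, a neuronal heavy chain of conventional kinesin, had the largest change among all 137 genes. It stood at 8.64, 8.45 and 7.96 in TDNC1 replicates 1, 2 and 3 and at 7.84, 7.69 and 7.95 in the controls. The groups did not overlap, with TDNC1 replicate 3 just above control replicate 3. Its log2 change was 0.52 (SE 0.18, 95% interval 0.09 to 0.95), or 1.44-fold, with a limma adjusted p of 0.631. Without replicate 3 it was 0.72 (SE 0.12, limma adjusted p 0.113).

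The other heavy chains of conventional kinesin had the same order of the 3 TDNC1 arrays, with smaller changes. KIF5A, the other neuronal form, stood at 7.17, 6.99 and 6.37 in TDNC1 and at 6.61, 6.64 and 6.44 in the controls. Its change of 0.27 (SE 0.20) became 0.51 (SE 0.11) without replicate 3. KIF5B, the form found in most cells, stood at 11.04, 11.00 and 10.82 against 10.92, 10.86 and 10.86, a change of 0.08 (SE 0.10, 95% interval -0.15 to 0.30), and 0.14 (SE 0.09) without replicate 3. For both, replicates 1 and 2 lay above all controls and replicate 3 below them.

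The motors of the KIF1 group, which carry synaptic vesicle precursors and other organelles, were also higher in replicates 1 and 2. KIF1A stood at 8.49, 8.49 and 8.22 in TDNC1 and at 8.0, 8.19 and 8.24 in the controls, a change of 0.26 (SE 0.12), and 0.35 (SE 0.11) without replicate 3. KIF1C stood at 8.83, 8.75 and 8.43 against 8.38, 8.41 and 8.45, a change of 0.26 (SE 0.12), and 0.37 (SE 0.09) without replicate 3. KIF1B had a change of 0.19 (SE 0.14), and 0.32 (SE 0.10) without replicate 3. Its other, dimmer row had one of -0.05 (SE 0.11). In each of the brighter rows TDNC1 replicate 3 lay inside the range of the controls.

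KIFC3, a motor that walks towards microtubule minus ends, stood at 5.90, 5.83 and 5.61 in TDNC1 and at 5.52, 5.53 and 5.57 in the controls, with no overlap. Its change was 0.24 (SE 0.10, limma adjusted p 0.646). KIF13B stood at 7.84, 7.71 and 7.54 against 7.51, 7.53 and 7.53, also with no overlap, a change of 0.17 (SE 0.10). The subunits of heterotrimeric kinesin, which serves cilia, were mixed: KIF3A had a change of 0.16 (SE 0.11), KIF3C of 0.14 (SE 0.09) and KIF3B of -0.01 (SE 0.09). KIFC2 had the lowest change of the group, -0.07 (SE 0.09), and -0.01 (SE 0.09) without replicate 3.

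**Figure D3:**
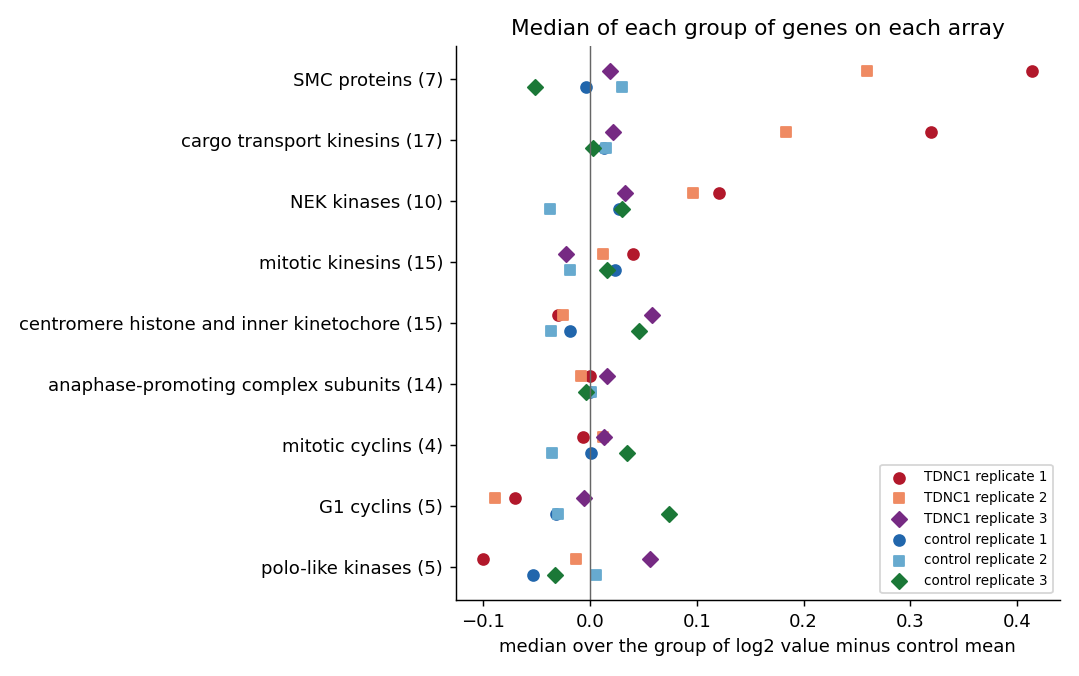
Median, over each group of genes, of the log2 value minus the mean of the controls (x axis) on each of the 6 arrays, for 9 groups (y axis, number of genes in brackets). TDNC1 replicates 1 and 2 stand to the right of all other arrays for SMC proteins (0.41 and 0.26) and cargo transport kinesins (0.32 and 0.18), and TDNC1 replicate 3 lies beside the controls (0.02 in both groups).

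The kinesins of cilia and the remaining motors had a median change of -0.01 over 10 genes, with KIF27 far from the rest. KIF27, a relative of the Hedgehog pathway motor KIF7, stood at 6.37, 6.32 and 5.83 in TDNC1 and at 5.74, 5.64 and 5.63 in the controls, with no overlap. Its log2 change was 0.51 (SE 0.15, 95% interval 0.14 to 0.87), or 1.42-fold, with a limma adjusted p of 0.631, and 0.68 (SE 0.09, limma adjusted p 0.103) without replicate 3. Its other rows were much dimmer, with means of 2.58 and 2.60 and changes of -0.20 (SE 0.17) and -0.08 (SE 0.15). KIF7 itself had a change of 0.03 (SE 0.08).

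KIF6 was dim and lower on every TDNC1 array, at 4.84, 4.88 and 4.82 against 5.04, 5.03 and 5.08. Its change was -0.20 (SE 0.08, limma adjusted p 0.646), and -0.19 without TDNC1 replicate 3. KIF12 had a change of -0.15 (SE 0.09) and no overlap, at 5.58, 5.63 and 5.57 against 5.82, 5.76 and 5.65. KIF9-AS1, a noncoding RNA named as antisense to KIF9, stood at 4.25, 4.20 and 4.48 against 4.70, 4.65 and 4.64. Its change of -0.35 (SE 0.10, limma adjusted p 0.631) was the lowest of the 137. KIF9 had a change of -0.03 (SE 0.10). Both rows are dim, near the array medians of 5.16 to 5.22 or below them, where the changes of RMA values are compressed.

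The SMC proteins are the long ATPases of the ring complexes that hold sister chromatids (cohesin), compact chromosomes (condensin) and serve DNA repair (the complex of SMC5 and SMC6). All 7 had a positive change, with a median of 0.17 and a range of 0.09 to 0.31, and 0 of them were called. Set against the mean of the controls, their median on each array was 0.41, 0.26 and 0.02 in TDNC1 replicates 1, 2 and 3 and between -0.05 and 0.03 in the controls. In replicates 1 and 2, 6 and 6 of the 7 stood above all controls, and in replicate 3 only 1. Among the named protein-coding genes those shares were 36.8%, 33.4% and 25.3%, and 52.4% had a positive change. Without replicate 3 the median was 0.34.

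SMC1A, the cohesin subunit of dividing body cells, stood at 11.14, 11.06 and 10.67 in TDNC1 replicates 1, 2 and 3, and its controls at 10.64, 10.64 and 10.65 were nearly equal. The groups did not overlap. Its log2 change was 0.31 (SE 0.14, 95% interval -0.01 to 0.64), or 1.24-fold, with a limma adjusted p of 0.646, and 0.46 (SE 0.09, limma adjusted p 0.127) without replicate 3. SMC3, its partner, stood at 11.28, 11.13 and 10.70 against 10.90, 10.92 and 10.78. Replicates 1 and 2 were above all controls and replicate 3 below them. The change was 0.17 (SE 0.16), and 0.34 (SE 0.10) without replicate 3. SMC1B, the form of germ cells, was dim, with a mean of 4.07 ± 0.12 (SD, n = 3) in TDNC1 and 3.95 ± 0.25 in the controls.

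The condensin subunits SMC2 and SMC4 and the SMC5 and SMC6 pair gave the same order of the 3 TDNC1 arrays. SMC2 stood at 9.71, 9.60 and 9.33 in TDNC1 and at 9.34, 9.33 and 9.22 in the controls, a change of 0.25 (SE 0.12), and 0.36 (SE 0.10) without replicate 3. SMC4 stood at 10.10, 10.10 and 9.82 against 9.96, 10.02 and 9.77, a change of 0.09 (SE 0.12), and 0.18 (SE 0.11) without replicate 3. SMC6 stood at 9.55, 9.52 and 9.15 against 9.12, 9.18 and 9.07, a change of 0.28 (SE 0.13, limma adjusted p 0.651), and 0.41 (SE 0.09) without replicate 3. SMC5 had a change of 0.16 (SE 0.11), and 0.25 (SE 0.09) without replicate 3. For SMC2, SMC4, SMC5 and SMC6, TDNC1 replicates 1 and 2 lay above all controls, and replicate 3 within or below their range.

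The centromere genes also had changes on both sides of 0. Of 16 CENP genes, 9 had a positive change, with a median of 0.01. In TDNC1 replicates 1, 2 and 3, 3, 4 and 8 of the 16 stood above all controls, and 6, 6 and 0 below them. Among the named protein-coding genes, 36.8%, 33.4% and 25.3% stood above and 29.3%, 29.8% and 24.2% below. For these genes replicate 3 was thus the array most often above the controls. CENPA, the histone that marks the centromere, stood at 7.77, 7.74 and 7.75 in TDNC1 and at 7.77, 7.67 and 7.78 in the controls. Its log2 change was 0.02 (SE 0.08), with a 95% interval of -0.18 to 0.22. CENPC, which links that histone to the outer kinetochore, was the exception. It stood at 7.76, 7.52 and 7.34 against 7.19, 7.25 and 7.17, with no overlap, a change of 0.33 (SE 0.12, 95% interval 0.04 to 0.62) and a limma adjusted p of 0.637. Without TDNC1 replicate 3 the change was 0.43 (SE 0.11, limma adjusted p 0.190).

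CENPX, a small histone fold protein of the kinetochore and of DNA repair, had the lowest change among the CENP genes. It stood at 9.11, 9.29 and 9.45 in TDNC1 and at 9.40, 9.58 and 9.53 in the controls, a change of -0.22 (SE 0.12), and -0.30 (SE 0.11) without replicate 3. Replicates 1 and 2 were below all controls and replicate 3 was not. CENPBD2P, a pseudogene, had a change of -0.21 (SE 0.10). The checkpoint genes had changes of both signs: BUB1 had a change of -0.11 (SE 0.09, no overlap), BUB1B of 0.12 (SE 0.10) and BUB3 of 0.04 (SE 0.08). BUB1 stood at 9.76, 9.72 and 9.81 against 9.94, 9.81 and 9.88, and the groups are apart before rounding.

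**Figure D4:**
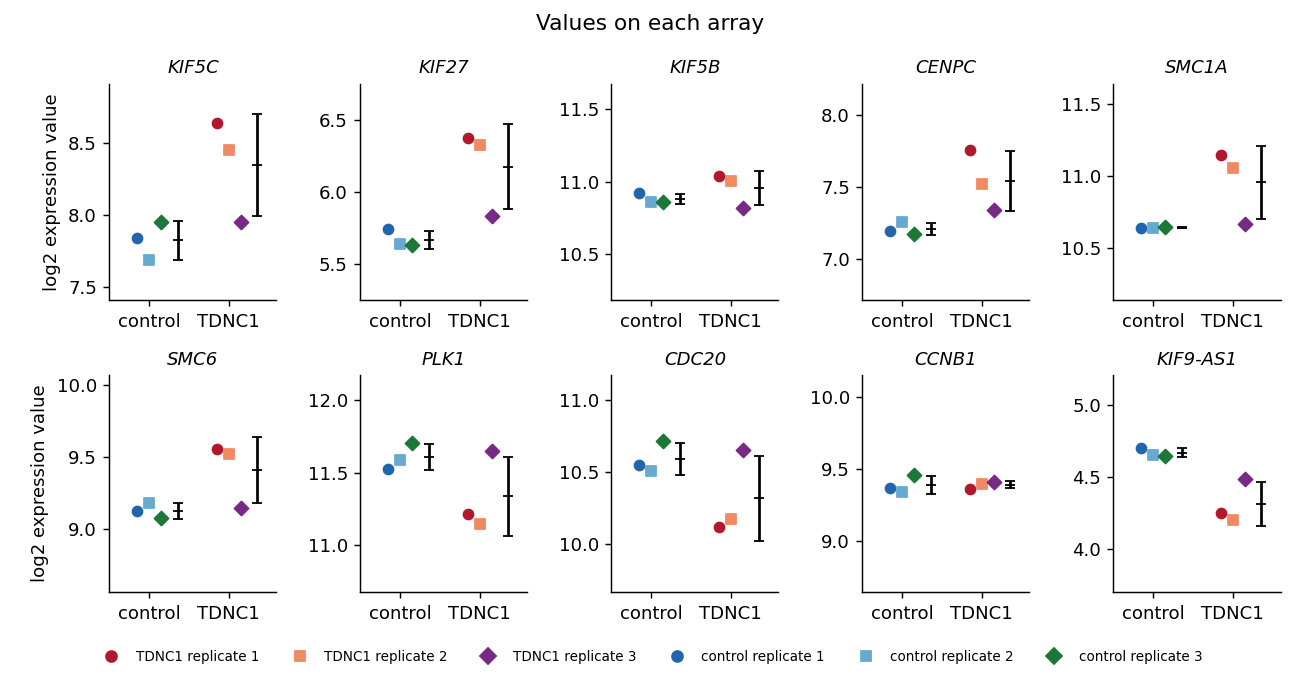
Log2 expression values (y axis, each panel spanning the same height) of 10 of the genes on the 3 control and 3 TDNC1 arrays (x axis), with the mean ± SD of each group as a bar. TDNC1 replicates 1 and 2 are high for KIF5C, KIF27, CENPC, SMC1A and SMC6 and low for PLK1, CDC20 and KIF9-AS1, while replicate 3 sits nearer to the controls, and CCNB1 has group means of 9.39 and 9.39.

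Among the mitotic kinases and their switches, PLK1 and CDC20 had a like pattern over the arrays. PLK1, the polo-like kinase that drives mitotic entry, stood at 11.21, 11.14 and 11.65 in TDNC1 replicates 1, 2 and 3 and at 11.53, 11.59 and 11.70 in the controls. CDC20, the activator of the anaphase-promoting complex, stood at 10.12, 10.17 and 10.65 against 10.55, 10.50 and 10.72. In both, replicates 1 and 2 were below all controls and replicate 3 was inside their range. The log2 change of PLK1 was -0.27 (SE 0.15, limma adjusted p 0.686), and -0.43 (SE 0.10, limma adjusted p 0.168) without replicate 3. That of CDC20 was -0.27 (SE 0.16, limma adjusted p 0.690), and -0.44 (SE 0.11, limma adjusted p 0.173) without it.

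The mitotic cyclins CCNB1, CCNA2 and CCNB2 did not share this pattern. CCNB1, the B-type cyclin of mitotic entry, stood at 9.36, 9.40 and 9.41 in TDNC1 and at 9.36, 9.34 and 9.46 in the controls. Its change was 0.0033 (SE 0.09), with a 95% interval of -0.20 to 0.21. CCNA2, the cyclin of S phase and G2, stood at 10.42 on each TDNC1 array and at 10.43, 10.37 and 10.42 in the controls, a change of 0.01 (95% interval -0.18 to 0.21). CCNB2 had a change of 0.09 (SE 0.09). CCNB3, a dim row, stood at 4.65, 4.77 and 4.81 in TDNC1 and at 5.11, 4.90 and 4.74 in the controls. Its change was -0.18 (SE 0.12), and -0.21 (SE 0.13) without replicate 3. Log2 changes above 0.21 lay outside the intervals of both CCNB1 and CCNA2.

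The promoters of PLK1, CDC20, CCNB1, the cytokinesis motor KIF23 and SMC1A are shown because these genes share G2 and mitotic roles or, for SMC1A, stood higher, yet their values differed in direction. Each run covers 300 bases, from 250 before to 50 after the start of the gene, 5′ to 3′ on the strand of the gene, from the RefSeq promoter table (GRCh38.p14). Capitals mark matches to the CHR (TTTGAA or, on the other strand, TTCAAA) and to the CCAAT box (CCAAT or ATTGG). PLK1 lies at chr16:23678639-23678938 (+), CDC20 at chr1:43358731-43359030 (+), CCNB1 at chr5:69166900-69167199 (+), KIF23 at chr15:69414099-69414398 (+) and SMC1A at chrX:53422679-53422978 (-).
PLK1: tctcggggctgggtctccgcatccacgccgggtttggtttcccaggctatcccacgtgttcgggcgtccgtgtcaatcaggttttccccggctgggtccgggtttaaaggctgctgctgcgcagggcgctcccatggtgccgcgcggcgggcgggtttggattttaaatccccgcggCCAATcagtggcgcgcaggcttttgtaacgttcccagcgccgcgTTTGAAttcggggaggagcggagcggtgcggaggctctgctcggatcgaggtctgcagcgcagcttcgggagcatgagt
CDC20: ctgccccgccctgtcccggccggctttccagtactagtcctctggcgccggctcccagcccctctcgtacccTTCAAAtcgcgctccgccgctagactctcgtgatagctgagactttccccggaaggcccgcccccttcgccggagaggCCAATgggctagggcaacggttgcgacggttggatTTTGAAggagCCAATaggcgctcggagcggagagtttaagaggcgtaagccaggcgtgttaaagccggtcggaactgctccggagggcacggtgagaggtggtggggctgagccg
CCNB1: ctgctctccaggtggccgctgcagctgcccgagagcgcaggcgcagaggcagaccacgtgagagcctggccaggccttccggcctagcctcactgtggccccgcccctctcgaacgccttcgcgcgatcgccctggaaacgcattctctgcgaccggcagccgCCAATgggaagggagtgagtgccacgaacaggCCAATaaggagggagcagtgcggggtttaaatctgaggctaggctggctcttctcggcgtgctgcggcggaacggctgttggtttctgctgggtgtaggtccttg
KIF23: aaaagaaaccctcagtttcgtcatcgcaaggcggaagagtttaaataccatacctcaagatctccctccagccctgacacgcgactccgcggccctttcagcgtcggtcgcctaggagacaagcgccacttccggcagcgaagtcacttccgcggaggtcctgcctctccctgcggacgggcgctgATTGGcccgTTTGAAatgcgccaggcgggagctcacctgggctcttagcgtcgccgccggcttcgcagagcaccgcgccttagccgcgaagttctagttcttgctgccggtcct
SMC1A: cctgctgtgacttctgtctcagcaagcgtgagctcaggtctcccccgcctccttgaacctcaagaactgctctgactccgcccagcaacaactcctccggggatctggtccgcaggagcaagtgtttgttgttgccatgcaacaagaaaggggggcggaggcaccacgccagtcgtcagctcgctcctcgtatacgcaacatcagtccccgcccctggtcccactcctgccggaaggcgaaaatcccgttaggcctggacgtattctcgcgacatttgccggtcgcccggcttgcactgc

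In PLK1 the CHR letters begin 29 bases before the start and a CCAAT box 73 bases before it. CDC20 has CHR letters at 178 and 65 bases and CCAAT boxes at 100 and 55 bases before its start. CCNB1 has CCAAT boxes at 87 and 55 bases and no match to the CHR letters searched in this window. KIF23 has both motifs, and SMC1A has neither. Other forms of the CHR were not searched, so a gene without a match may still have one. A match describes the letters and says nothing of binding in these cells.

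A promoter was found for 114 of the 137 genes. CHR letters were present in 30 of them (26.3%), against 15.4% of all 27305 promoters of the table and 11.4% of those of the named protein-coding genes. The CCAAT box was present in 43.9%, against 35.7% and 36.2%, and both motifs in 17.5%, against 6.08% and 4.74%. The E2F motif, searched as TTTNGCGC and GCGCNAAA, was present in 7.02%, against 1.83% and 2.57%. The letters were unevenly spread: 10 of 15 mitotic kinesins had the CHR and 9 both it and a CCAAT box, while 1 of 12 cargo transport kinesins had the CHR, also with a CCAAT box. The genes with and without CHR letters had median log2 changes of 0.03 (30 genes) and 0.05 (84 genes). With and without a CCAAT box the medians were 0.0055 (50 genes) and 0.08 (64 genes). For both motifs together they were 0.02 (20 genes) and 0.05 (94 genes), and for the E2F motif 0.08 (8 genes) and 0.03 (106 genes). These differences were not tested.

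The aurora kinases AURKA and AURKB had changes near 0. AURKA, which matures the spindle poles, had a log2 change of 0.05 (SE 0.08, 95% interval -0.15 to 0.25), and AURKB, the kinase of the chromosomal passenger complex, one of -0.02 (SE 0.13), and -0.07 (SE 0.14) without TDNC1 replicate 3. PLK4, the kinase that starts centriole duplication, stood at 8.35, 8.23 and 8.09 in TDNC1 and at 8.04, 8.12 and 7.94 in the controls, a change of 0.19 (SE 0.11). Of 10 NEK genes, 8 had a positive change, with a median of 0.07, against 52.4% of the named protein-coding genes. In TDNC1 replicates 1, 2 and 3, 8, 7 and 4 of them stood above all controls, against 36.8%, 33.4% and 25.3% of the named protein-coding genes. NEK9, which acts upstream of NEK6 and NEK7 in spindle assembly, stood at 8.0, 7.99 and 7.90 against 7.80, 7.65 and 7.78, with no overlap. Its change was 0.22 (SE 0.09, 95% interval 0.01 to 0.44, limma adjusted p 0.646).

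NEK3 also had no overlap, at 7.35, 7.47 and 7.31 in TDNC1 and 7.14, 7.08 and 7.24 in the controls, a change of 0.22 (SE 0.10). NEK2, the kinase that splits the centrosomes before mitosis, had a change of 0.10 (SE 0.09). NEK6 had one of 0.18 (SE 0.11) and NEK7 one of -0.05 (SE 0.12), and without TDNC1 replicate 3 these were 0.26 (SE 0.09) and -0.16 (SE 0.11). NEK10, a dim row, stood lower on every TDNC1 array, at 4.88, 4.87 and 4.94 against 5.07, 5.07 and 4.97, a change of -0.14 (SE 0.09). Of the kinases that NEK9 acts on, NEK6 thus had a change of the same sign as NEK9 and NEK7 one of the opposite sign. The differences between them were not tested.

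The subunits of the anaphase-promoting complex had changes on both sides of 0. Of 14 subunits (the ANAPC genes with CDC16, CDC23, CDC26 and CDC27), 7 had a positive change, with a median of 0.00067 and a range of -0.12 to 0.13. ANAPC10, which helps to bind substrates, stood at 6.40, 6.48 and 6.56 in TDNC1 and at 6.35, 6.36 and 6.35 in the controls, with no overlap and a change of 0.13 (SE 0.09). ANAPC1, the scaffold, had a change of -0.03 (SE 0.08). ANAPC1P2, one of its pseudogenes, had one of 0.12 (SE 0.10), and of 0.19 (SE 0.09) without TDNC1 replicate 3, and probes may not tell such copies apart. CDC27 had a change of 0.01 (SE 0.08) in its brightest row, at 9.80, while a second row at a mean of 2.34, near the bottom of the array, had one of -0.42 (SE 0.11).

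Of 5 G1 cyclins, which start the cycle, 1 had a positive change. Their median was -0.05, -0.09 without TDNC1 replicate 3 and -0.02 without replicate 3 of both groups. Of the named protein-coding genes, 52.4% were positive. CCND2 was the positive one, at 8.84, 8.77 and 8.36 in TDNC1 and 8.46, 8.34 and 8.31 in the controls, a change of 0.29 (SE 0.14), and 0.43 without replicate 3. Its second, dimmer row had a change of -0.13 (SE 0.14). CCNE2, which drives entry into S phase, stood at 8.23, 8.25 and 8.52 against 8.52, 8.45 and 8.60, a change of -0.19 (SE 0.11), and -0.29 (SE 0.09) without replicate 3. CCND1 and CCNE1 had changes of -0.04 (SE 0.10) and -0.05 (SE 0.11), and that of CCNE1 was -0.09 (SE 0.12) without replicate 3.

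Of the CDC25 phosphatases, which switch on the cyclin-dependent kinases, CDC25C had a change of 0.22 (SE 0.11), CDC25B of 0.21 (SE 0.16) and CDC25A of 0.05 (SE 0.12), which was -0.01 (SE 0.13) without TDNC1 replicate 3. CDC25B stood at 9.42, 9.18 and 8.81 in TDNC1 and at 8.89, 9.00 and 8.89 in the controls. Replicates 1 and 2 were again above all controls and replicate 3 below them, and the change was 0.37 (SE 0.11) without it. CDC6 and CDC45, which load and run the replicative helicase, had changes of -0.03 (SE 0.10) and 0.09 (SE 0.09). The CDCA genes had a median of 0.04 over 7, with CDCA8, the passenger protein borealin, at 0.04 (SE 0.11), CDCA5, the cohesion protein sororin, at -0.14 (SE 0.10) and CDCA3 at -0.13 (SE 0.14). The change of CDCA3 was -0.26 (SE 0.11) without replicate 3.

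**Figure D5:**
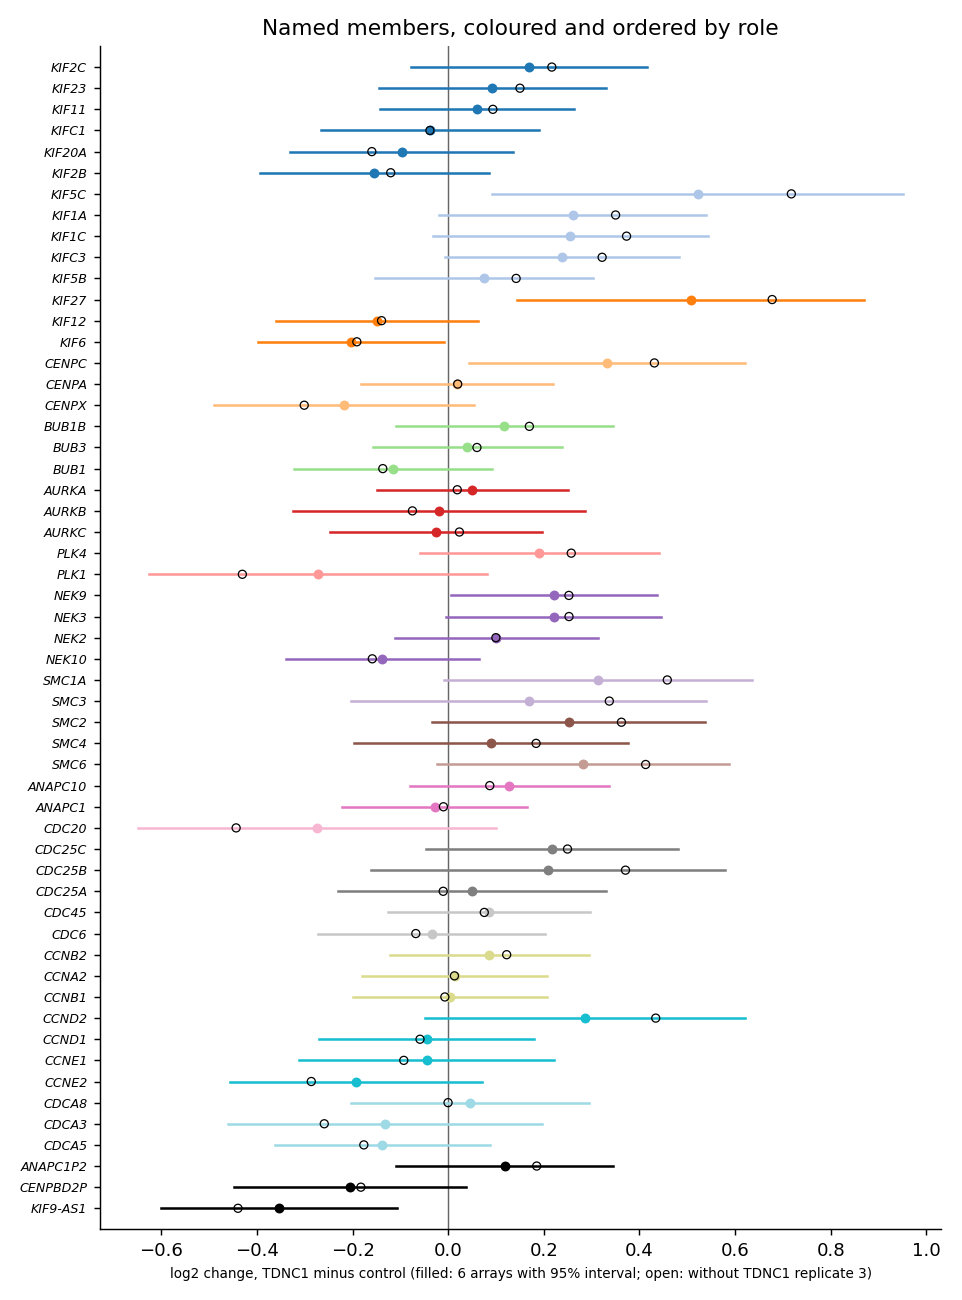
Log2 change (x axis, TDNC1 minus control) of 55 named genes (y axis, ordered by role), as filled points with 95% intervals from the 6 arrays and as open points without TDNC1 replicate 3. The intervals of 6 genes (KIF27, KIF5C, CENPC, NEK9, KIF6 and KIF9-AS1) leave out 0. For KIF5C, KIF27, SMC1A, PLK1 and CDC20 the open point lies farther from 0 than the filled one, and for ANAPC10, AURKA, CENPBD2P and KIF12 nearer.

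The rest of the division machinery was measured through 6 lists of other genes, with 87 of 121 listed genes on named rows. By limma 0 of the 87 were called, 8 had an unadjusted p under 0.05 (9.20%; 4 higher, 4 lower), against 7.70% of all rows and 7.29% of the named protein-coding genes. A positive change was found for 58 (66.7%), against 47.0% and 52.4%. In the outer kinetochore and checkpoint list (11 of 20 measured, 7 positive), MAD2L1, the checkpoint protein that holds CDC20 inactive, stood at 9.26, 9.28 and 9.11 in TDNC1 and at 8.96, 8.92 and 9.03 in the controls. Its change was 0.25 (SE 0.09, limma adjusted p 0.637), and that of KNTC1, which brings the checkpoint motor to kinetochores, 0.36 (SE 0.16). Among passengers, cohesin and separase genes (15 of 17 measured, 11 positive), ESCO2, which acetylates SMC3, had a change of -0.28 (SE 0.09) and SGO2, which guards cohesin at centromeres, one of -0.22 (SE 0.10).

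ESCO2 and SGO2 thus had changes of the opposite sign to the SMC proteins. They were among the 4 negative genes of the passenger, cohesin and separase list, where 11 of 15 were positive. Among the positive ones, ESCO1 had a change of 0.36 (SE 0.17) and STAG2 one of 0.23 (SE 0.12). In the spindle list (10 of 17 measured, 9 positive), NUSAP1 had a change of 0.28 (SE 0.12) and CKAP5, a microtubule polymerase, one of 0.22 (SE 0.10). In the replication list (14 of 23 measured, 6 positive), the helicase subunit MCM3 had a change of 0.18 (SE 0.09) and the licensing factor CDT1 one of -0.20 (SE 0.13), and -0.30 without TDNC1 replicate 3. Among cyclin-dependent kinases, their regulators and E2F factors, 16 of 23 measured genes were positive. RB1, the retinoblastoma protein, stood at 9.74, 9.70 and 9.90 in TDNC1 and at 10.11, 10.09 and 9.97 in the controls, a change of -0.27 (SE 0.10, limma adjusted p 0.631). FOXM1, the transcription factor that activates PLK1 and other G2 genes, stood at 9.19, 9.29 and 9.50 against 9.60, 9.64 and 9.58, a change of -0.28 (SE 0.11, limma adjusted p 0.642).

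FOXM1 and RB1 were lower on every TDNC1 array than on any control, with replicate 3 nearest to the controls. In the list of proliferation and G2 markers (14 of 15 measured, 9 positive), TROAP, a spindle protein, stood at 7.48, 7.59 and 7.96 against 8.0, 8.20 and 8.21, a change of -0.46 (SE 0.15, limma adjusted p 0.631). PBK, a mitotic kinase, stood at 10.02, 9.86 and 9.51 against 9.44, 9.49 and 9.41, a change of 0.35 (SE 0.14). These G2 genes thus lay on both sides of the controls.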

How the data were processed

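The 6 arrays were summarised by the authors as log2 values with RMA and Affymetrix Power Tools, as the submitters' processing notes list them, and these deposited log2 values were used. No source used here names versions, an annotation or a genome build. The log2 scale was judged from the range of the values. RMA gives all arrays the same distribution, so a shift of most transcripts would be removed, and it compresses the changes of dim rows. Arrays have no sequencing depth, and 3 arrays per group limit the precision. Of 53617 rows, 16098 had 1 gene symbol and 37519 are unnamed here.

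The titles of the samples gave the groups. Both groups were fitted with lmFit and eBayes of limma 3.58.1 (R 4.3.3), two-sided and with no covariate, over all rows, with Benjamini-Hochberg adjustment over all of them. The alternatives left out each array or both arrays numbered 3, left out dim rows, averaged the rows of a symbol, centred the arrays, used trend and robust variances, array weights, or the replicate number as a block. Tested on simulated arrays of the same size, with 3 arrays a group, the fit called 4.0% of rows shifted by 0.5 on the log2 scale, 52.0% of those shifted by 1, 88.7% at 2 and 100% at 4, with 18 false calls in 3 draws of 200 shifted rows.

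The rule for named genes took 34 of 38 listed mitotic genes (those with a row), any gene with an adjusted p under 0.05, those of smallest p in each direction (10 each) and in each family (2 each), and of the lists of other genes the 2 with the smallest p. The kinesins, subunits and other genes named beside them were chosen after their values were seen. The genes and the lists were chosen by symbol or role with earlier results of these data known. Promoters came from the RefSeq promoter table of GRCh38.p14 (first entry of each gene), which is not tied to the build of the array.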

Additional observations from a re-analysis of the deposited data

How the results depend on the processing

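In all 13 alternatives 0 of the genes were called by limma, with a lowest adjusted p of 0.103 without TDNC1 replicate 3. The genes with an unadjusted p under 0.05 numbered 6 with all arrays, 18 with array weights, 10 with trend and robust variances, 27 without replicate 3 of both groups, and 2 to 28 when 1 array was left out. Leaving out TDNC1 replicate 3 gave the 28, and leaving out TDNC1 replicate 1, TDNC1 replicate 2, control replicate 1 or control replicate 2 gave 2 or 3. The median log2 change over all genes was 0.0545 with centred arrays, and that of the CDC family 0.0336. Without replicate 3 of both groups the family medians were 0.0406 for AURK, -0.00388 for CCN, 0.141 for NEK and -0.138 for PLK. When 1 array was left out they ran from -0.0511 to 0.0562 for AURK, -0.0612 to 0.0204 for CCN, -0.00735 to 0.0312 for CDC, 0.0564 to 0.123 for NEK, -0.117 to 0.00701 for PLK and 0.136 to 0.337 for SMC. The cause was not tested.

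Of the 55 named genes, 45 kept the sign of their log2 change in every alternative and 10, with changes of at most 0.05 in size, did not. AURKB turned to 0.0025 with centred arrays. Without replicate 3 of both groups AURKB was 0.0406, AURKC 0.0474, CDC6 0.00189, KIFC1 0.0322 and CENPA (not turned) 0.0393. When 1 array was left out, the ranges were AURKB -0.111 to 0.0958, AURKC -0.0753 to 0.0235, CCNA2 -0.00457 to 0.0251, CCNB1 -0.0212 to 0.0389, CCNE1 -0.118 to 0.0439, CDC25A -0.0104 to 0.149, CDC6 -0.0817 to 0.0348, CDCA8 -0.000254 to 0.123, CENPA -0.0155 to 0.038 and KIFC1 -0.0732 to 0.0324. Over all rows, the deviations of same-numbered arrays from their group means had correlations of 0.0359, -0.00129 and 0.0468. The best-correlated control was control replicate 1 for TDNC1 replicates 1 and 2, and control replicate 3 for TDNC1 replicate 3. Over the 137 genes, TDNC1 replicate 3 and control replicate 3 were also the closest pair across the groups (0.0687). Whether same-numbered arrays share an effect was not tested. With the replicate number as a block, 4 genes had an unadjusted p under 0.05 and 0 were called. On simulated arrays, with variances shuffled over all rows, the fit called 4.0% of shifts of 0.5, about the largest size seen here. That share is not specific to these genes. Signal close to background limits dim rows such as KIF9-AS1 and KIF6.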
